A study of Mus musculus with 10 samples.

Results

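The genes described are 56 Wnt ligands, secretion factors, receptors, co-receptors, R-spondins, Lgr receptors, secreted antagonists and target genes, out of the 38924 genes that were counted. They were chosen by name, by matching the gene identifiers of the count data to a fixed list of symbols, and all 56 were found. RNA was sequenced from 10 samples of sorted cells from differentiating mouse embryonic stem cells (mESCs). Foxa2+ CM (n = 3) and Foxa2- CM (n = 3) are Kdr+Pdgfra+ cardiac mesoderm (CM) cells that did or did not express human CD4 from the Foxa2 locus. Both were sorted from cultures induced with Activin A, BMP4 and VEGF. Haematopoietic mesoderm (HM, n = 2) is the population labelled Flk1+ high from the same cardiac protocol, and Foxa2+ endoderm (n = 2) came from cultures given a higher dose of Activin A. The paper names no BMP4 or VEGF for these endoderm cultures. All 4 groups derive from the same Foxa2-hCD4 mESC line, in which a truncated human CD4 is made from the Foxa2 locus. Before differentiation the cells were kept with PD, Lif and CHIR, and CHIR is itself an activator of Wnt signalling. Sorting took place on the same early day of differentiation in every group. The endoderm differs from the other groups both in cell type and in culture protocol, so these cannot be told apart.

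Wnt proteins are secreted lipid-modified ligands. Porcn attaches the lipid and Wls carries the ligand to the cell surface, where it binds a Frizzled receptor together with Lrp5 or Lrp6 and stabilises beta-catenin, which turns on targets such as Axin2 through Tcf and Lef factors. Ligands such as Wnt5a can instead act through Ror receptors without beta-catenin. R-spondins bind Lgr receptors and make cells more sensitive to Wnt, whereas Dkk1, the Sfrp proteins, Frzb and Notum dampen the signal. In the gastrulating embryo Wnt signalling is needed to form mesoderm, and its later reduction favours cardiac fate.

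Promoter sequence was examined for the members with a promoter window at hand, to show which of them hold a Tcf/Lef motif next to their start. RefSeq windows (GRCm38.p6) of 250 bases before to 50 after the start were at hand for 37 of the 56 members, 44 windows in all. The remaining members were not examined. The Tcf/Lef motifs searched, on both strands, were CTTTG followed by AA, AT, TA or TT. They occurred in 6 of the 44 member windows (13.6%) and in 16.9% of all 32851 windows of the same length. The 6 matching stretches are printed because they belong to genes whose levels are described next, 30 bases each along the gene's strand, with the motif in capitals.
Dkk1, chr19:30549586-30549615, minus strand: agCTTTGAAatcccatcccggCTTTGTTgt
Wnt5b, chr6:119449440-119449469, minus strand: gagtaagtctctCTTTGATctgctccctgt
Fzd7, chr1:59482005-59482034, plus strand: gtccacagagaaAACAAAGcgcgctattgg
Wnt3, chr11:103774181-103774210, plus strand: acctcaagtggaCTTTGTTccaactattgg
Wnt11, chr7:98835049-98835078, plus strand: tgacgtgggcggATCAAAGcgacggtccgc
Lef1, chr3:131156135-131156164, plus strand: acaacctcagaaTACAAAGtaggattgcat
Lef1 has 4 windows and Wnt5b 3, each for a start of its own, and in both genes only 1 window held a motif, which for Lef1 is that of the start furthest downstream. In Dkk1 a pair of motifs began at −117 and −98 relative to the start site, and the other matches began between −147 (Lef1) and 18 (Wnt3). Forkhead letters (TGTTTAC, both strands), the kind of motif that Foxa2 can bind, occurred in 1 of 44 member windows, that of Tcf7, and in 3.6% of all windows. A match describes these letters and does not show binding.

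Counts on genes totalled between 10926284 and 17470126 per sample. Levels are given as CPM, counts scaled to the TMM-normalised library size, and 3 counts, the smallest signal taken as detectable, correspond to 0.169 to 0.280 CPM, a floor that covers counting error only. Foxa2 itself stood at 20.0, 16.0 and 3.50 CPM in Foxa2+ CM, at 2.54, 0.873 and 0.903 CPM in Foxa2- CM, 186 and 183 CPM in endoderm and 0.690 and 0.788 CPM in HM. The third Foxa2+ CM sample was therefore close to the first Foxa2- CM sample. The 6 endothelial markers examined summed to 129 CPM in the third Foxa2- CM sample, against 13.6 and 16.2 CPM in the others, and to 43.0 CPM in the third Foxa2+ CM sample, against 15.5 and 24.2 CPM. In HM they summed to 504 and 928 CPM, with no read of Emcn. The 10 blood markers summed to 1180 and 1190 CPM in HM, against 360 to 593 CPM in the CM samples. Of the 9 blood markers tested, 8 were called higher in HM than in CM, and Hba-x had no read in either HM sample. The 6 pluripotency markers summed to 381 and 378 CPM in endoderm, where Nanog, Pou5f1 and Sox2 were called higher than in CM and Zfp42 and Dppa5a lower. Replicate pairs differed by more than sampling noise, most of all the HM pair (chi-square per degree of freedom 21.5 over genes with at least 10 counts in the pair, against 3.72 to 13.2 for the other pairs). Nothing in the labels says that replicates came from separate cultures, so p-values measure the spread between these samples, which may be technical.

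**Figure D1:**
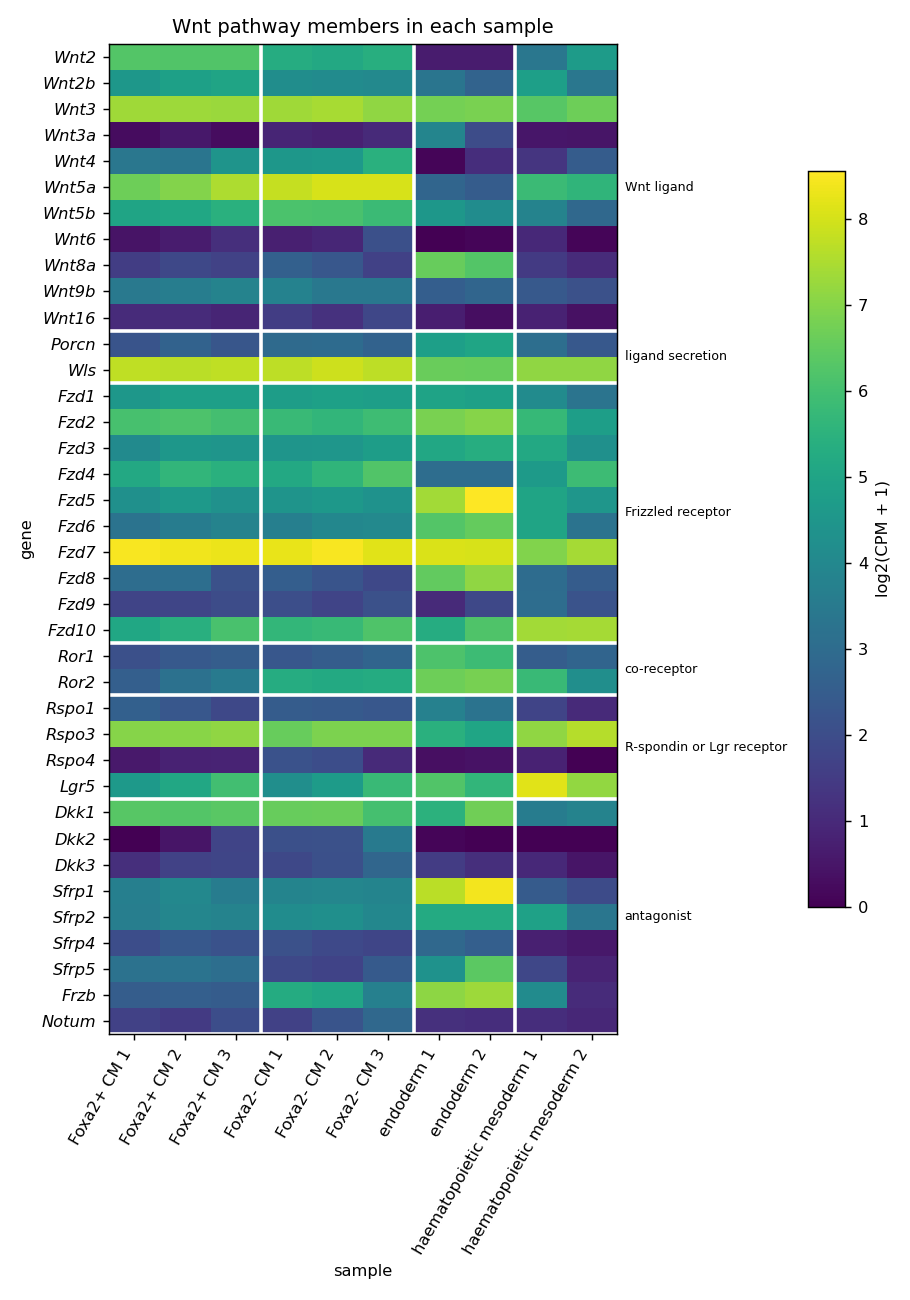
Heat map of log2(CPM + 1) for the 38 members that passed at least 1 test and averaged at least 1 CPM in their highest group, in each of the 10 samples, ordered by role. Wnt3, Wls and Fzd7 are high in every sample, Wnt8a, Fzd5, Fzd8, Ror1 and Sfrp1 are brightest in endoderm, and Lgr5 and Fzd10 in haematopoietic mesoderm.

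Of the 56 members, 48 had enough counts to be tested across all 10 samples, and 37 of them differed among the 4 groups at an adjusted p under 0.05 (edgeR quasi-likelihood F test with Benjamini-Hochberg adjustment over all 16180 genes tested), where 44.2% of all genes did. The 8 others were Wnt1, Wnt7a, Wnt8b, Wnt10a, Wnt10b, Rspo2, Dkk4 and Wif1. Wnt1 had no read in any sample, and Wnt10a and Wnt10b had 1 read each over all 10 samples. The 11 tested members that did not pass included the co-receptors Lrp5 and Lrp6, the R-spondin receptor Lgr4, the ligand Wnt11 and the targets Axin2, Lef1 and Tcf7. Members were grouped by role as 19 ligands, 2 secretion factors, 10 Frizzled receptors, 4 co-receptors, 7 R-spondins and Lgr receptors, 11 antagonists and 3 targets.

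Comparing Foxa2+ CM with Foxa2- CM asks whether CM that expresses Foxa2 differs in its Wnt components. Wnt2, Wnt2b and the antagonist Sfrp5 were higher in Foxa2+ CM, and Wnt5a, Wnt5b, the Wnt5a receptor Ror2 and the antagonist Frzb were lower. These were 7 of the 47 members tested on the 6 CM samples (edgeR quasi-likelihood test, adjusted p under 0.05 over 15284 genes). Over all genes, 3.81% were called higher and 2.66% lower, and for the members the counts were 3 and 4. The median log2 fold change of the members was −0.14, against 0 for all genes. Markers of other cells also differed between the CM groups. The 6 pluripotency markers summed to 61.6 to 68.1 CPM in Foxa2+ CM, below the 93.6 to 135 CPM of the Foxa2- samples, with 2 of the 6, Nanog and Sox2, called lower. Of 11 endoderm markers 3 were called higher (Foxa2, Sox17 and Trh), of 5 paraxial markers Dll3 and Tbx6 were called lower, and of 5 primitive streak markers Evx1 was called lower. Of 5 neural markers Tubb3 was called lower and of 10 blood markers Lmo2 higher. Of 11 cardiac mesoderm markers Nkx2-5 and Tbx5 were called higher and Mesp1, Hand1 and Isl1 lower. The part of these cells in the result was not tested.

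**Figure D2:**
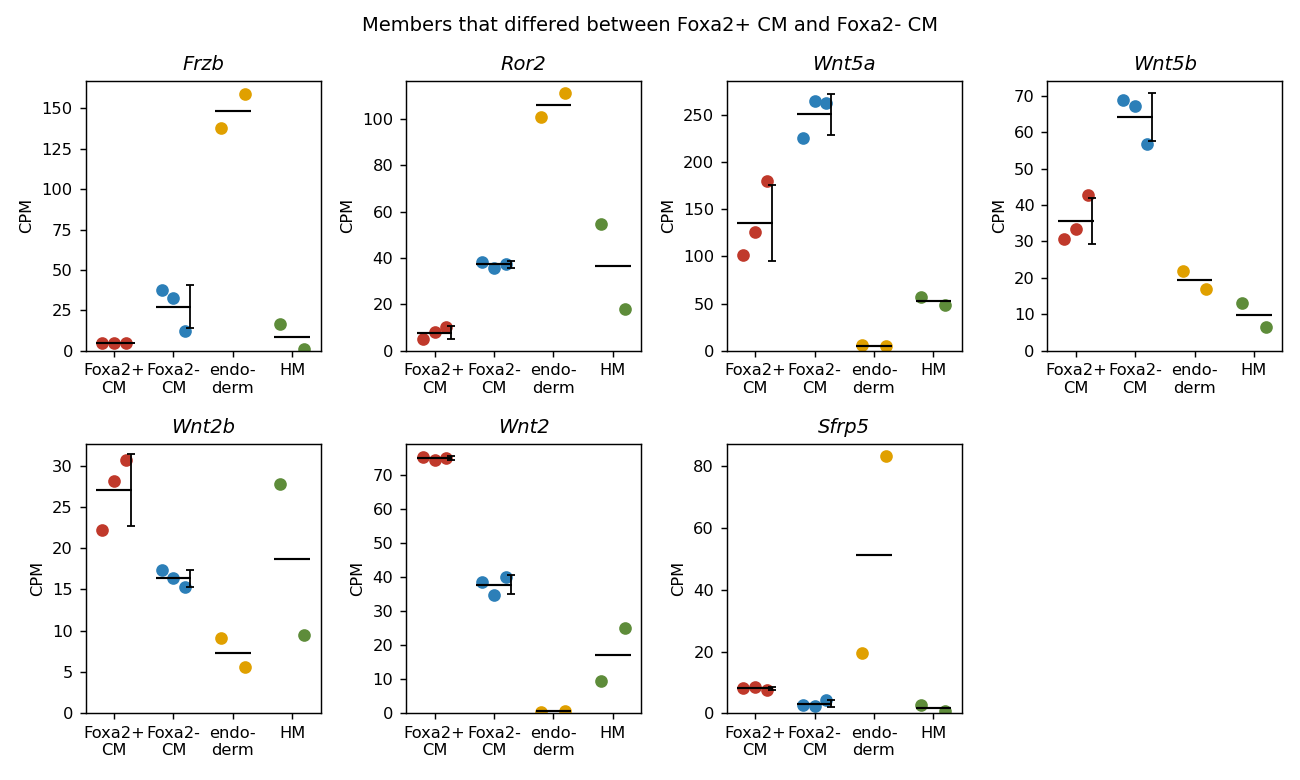
CPM in each sample (points) of the 7 members that differed between Foxa2+ CM and Foxa2- CM, with the group mean as a line, the SD as a bar for the groups of 3, and HM for haematopoietic mesoderm. The CM groups do not overlap in any panel, and Ror2, Frzb and Sfrp5 are highest in endoderm, where Wnt2 and Wnt5a are near 0.

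Among the ligands, Wnt2 (ENSMUSG00000010797.2), a ligand of the early heart-forming region, spans positions 17988940 to 18030585 of chromosome 6 (mm10, minus strand). It was at 75.5, 74.4 and 75.1 CPM in Foxa2+ CM, compared with 38.6, 34.8 and 40.1 CPM in Foxa2- CM. Its 6 CM values formed separate and tight groups, and the log2 fold change was 0.99 (SE 0.07, adjusted p = 0.000912 from edgeR). Wnt2b, its close relative (ENSMUSG00000027840.4, chromosome 3, 104945272 to 104961921), was at 22.2, 28.1 and 30.7 CPM in Foxa2+ CM, compared with 17.4, 16.4 and 15.3 CPM in Foxa2- CM. Here the Foxa2+ CM samples were the more spread, and the log2 fold change was 0.73 (SE 0.13, adjusted p = 0.0201).

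Wnt5a and Wnt5b, ligands best known for beta-catenin-independent signalling, went the other way. Wnt5a (ENSMUSG00000021994.8, chromosome 14, 28504750 to 28527448, plus strand) was at 101, 126 and 180 CPM in Foxa2+ CM, compared with 225, 264 and 262 CPM in Foxa2- CM, with the third Foxa2+ CM sample nearest to the Foxa2- CM samples. Its log2 fold change was −0.88 (SE 0.19, adjusted p = 0.0333 from edgeR). The exons of Wnt5a share 358 of 7823 bases with Gm2670 on the opposite strand, and reads there cannot be told apart if strand was not used in counting, which is not stated. Wnt5b (ENSMUSG00000030170.8, chromosome 6, 119432531 to 119544347, minus strand) was at 30.8, 33.5 and 42.8 CPM in Foxa2+ CM, compared with 68.8, 67.2 and 56.7 CPM in Foxa2- CM. It differed by −0.84 on the log2 scale (SE 0.13, adjusted p = 0.0107).

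Ror2, a receptor tyrosine kinase that binds Wnt5a, showed a larger difference than either of its ligands. The gene (ENSMUSG00000021464.8, chromosome 13, 53109312 to 53286124, minus strand) was at 4.97, 8.10 and 10.3 CPM in Foxa2+ CM, compared with 38.4, 35.6 and 37.6 CPM in the Foxa2- CM samples, which gave a log2 fold change of −2.24 (SE 0.22, adjusted p = 0.00263 from edgeR). Its relative Ror1 was at 3.22 to 4.74 CPM in the Foxa2+ samples and 3.96 to 5.81 CPM in Foxa2- CM, groups that overlapped (log2 fold change −0.24, SE 0.23, adjusted p = 0.696). The beta-catenin co-receptors Lrp5 and Lrp6 were at 206 to 245 CPM in all 6 CM samples, with log2 fold changes of 0.10 (SE 0.07) and 0.01 (SE 0.09). Fewer cells that make a transcript and less of it per cell cannot be told apart in such bulk samples.

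Frzb, a secreted Frizzled-related protein that binds Wnt ligands, was the antagonist with the largest called difference. It (ENSMUSG00000027004.3, chromosome 2, 80411970 to 80447625, minus strand) was at 4.82, 4.98 and 4.57 CPM in Foxa2+ CM, compared with 37.3, 32.5 and 12.2 CPM in Foxa2- CM, so that the third Foxa2- CM sample, the one with the high endothelial markers, was well below the other pair. The log2 fold change was −2.50 (SE 0.38, adjusted p = 0.0105 from edgeR). Sfrp5, of the same family (ENSMUSG00000018822.7, chromosome 19, 42197971 to 42202252, minus strand), was higher in Foxa2+ CM, at 8.33, 8.51 and 7.50 CPM against 2.66, 2.30 and 4.35 CPM (log2 fold change 1.37, SE 0.25, adjusted p = 0.0199). Dkk1, the most abundant antagonist per exonic kilobase in both CM groups, was at 80.8, 76.4 and 82.0 CPM in Foxa2+ CM, compared with 94.0, 96.0 and 64.7 CPM in Foxa2- CM, with no difference beyond that spread (log2 fold change −0.08, SE 0.13, adjusted p = 0.852).

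None of the 10 Frizzled receptors was called between the CM groups by edgeR or by DESeq2. At an unadjusted p under 0.05, edgeR gave 1 of the 10, and their log2 fold changes lay between −0.34 (Fzd6) and 0.71 (Fzd8). Fzd7 was the most abundant receptor per exonic kilobase in both groups, with 57.8% of the summed Frizzled level in Foxa2+ CM and 55.3% in Foxa2- CM. Fzd2 and Fzd10 took the next places. Among R-spondins and Lgr receptors, edgeR called none of 6, with 3 at an unadjusted p under 0.05, and DESeq2 called Rspo4. Rspo4 was low throughout, at 0.512, 0.752 and 0.790 CPM in Foxa2+ CM, compared with 3.47, 3.10 and 1.02 CPM in the Foxa2- CM samples (adjusted p = 0.0644 from edgeR). Neither secretion factor was called by edgeR or DESeq2, and 1 of the 2, Porcn, had an unadjusted p under 0.05 in edgeR (0.0299).

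None of the 3 targets passed the test between the CM groups. Axin2, a direct target that also limits the signal, was at 172, 178 and 188 CPM in Foxa2+ CM, compared with 190, 201 and 187 CPM in the Foxa2- CM samples (log2 fold change −0.10, SE 0.06, adjusted p = 0.427 from edgeR). Lef1 was at 81.7, 81.9 and 110 CPM against 107, 117 and 118 CPM (−0.32, SE 0.12, adjusted p = 0.184), and Tcf7 at 158, 152 and 159 CPM against 166, 187 and 165 CPM (−0.14, SE 0.06, adjusted p = 0.294). All 3 changes were below 0, the groups of Tcf7 did not overlap, and 1 of the 3 had an unadjusted p under 0.05. DESeq2 also called none of the 3.

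The CM calls varied with the samples that entered the test. Wnt2 and Ror2 were called whichever CM sample was left out, with adjusted p from 7.99e-05 to 0.0146 and from 0.000406 to 0.0269. With all 10 samples in 1 model, however, only Ror2 (adjusted p = 0.0285 from edgeR) and Wnt5a (0.0475) were called, and Wnt2 was not (0.103). Frzb and Wnt5b were lost without replicate 2 of Foxa2+ CM (adjusted p = 0.0619 and 0.0711 from edgeR) or of Foxa2- CM (0.0632 and 0.0682). Wnt2b was lost without Foxa2+ CM replicate 2 (0.118) or Foxa2- CM replicate 1 or 2 (0.069 and 0.102). Wnt5a and Sfrp5 were lost without replicate 1 or 2 of either group, with adjusted p from 0.0687 to 0.153 and from 0.0729 to 0.101. With the third sample of both CM groups left out, where endothelial markers were highest, 18 of 46 members were called, all 7 among them. The additional 11 were Fzd8, Fzd2, Rspo3 and Lgr5 as higher and Wnt4, Wnt8a, Fzd10, Rspo4, Dkk1, Dkk2 and Lef1 as lower in Foxa2+ CM. That fit rests on 2 samples a group and was chosen after the data were seen. The share of all genes called in that fit was not counted, so its higher count cannot be read as particular to the members. The part of endothelial cells in the result was not tested. The CPM of the CM groups did not overlap for 6 members on the higher side and 13 on the lower, of 47, against 13.6% and 10.4% of all genes. Those on the lower side included Wnt4, at 9.65, 8.97 and 20.8 CPM in Foxa2+ CM, compared with 22.2, 23.1 and 41.9 CPM in Foxa2- CM, which did not pass the test (adjusted p = 0.133).

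Ligand transcripts could be set against each other per kilobase of exon. Wnt3, a ligand needed to start the primitive streak, led the ligands in both CM groups, at 37.1% of the summed ligand level in Foxa2+ CM and 34.3% in Foxa2- CM, and at 50.7% in HM. In Foxa2+ CM it was followed by Wnt2 (24.1%), Wnt5a (12.4%) and Wnt5b (9.69%), and in Foxa2- CM by Wnt5a (21.3%), Wnt5b (16.1%) and Wnt2 (11.2%). The ranges of the Wnt2 share, 22.6% to 25.4% and 9.96% to 12.3%, did not overlap between the CM groups, nor did those of Wnt5a (9.78% to 15.6% and 19.0% to 23.1%). The summed ligand level was 132, 135 and 147 CPM per kb in Foxa2+ CM and 151, 155 and 145 CPM per kb in Foxa2- CM, groups that overlapped. Endoderm summed to 115 and 105 CPM per kb, with Wnt8a in first place at 44.1%, and HM to 52.9 and 63.2 CPM per kb, the lowest of the 4 groups.

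**Figure D3:**
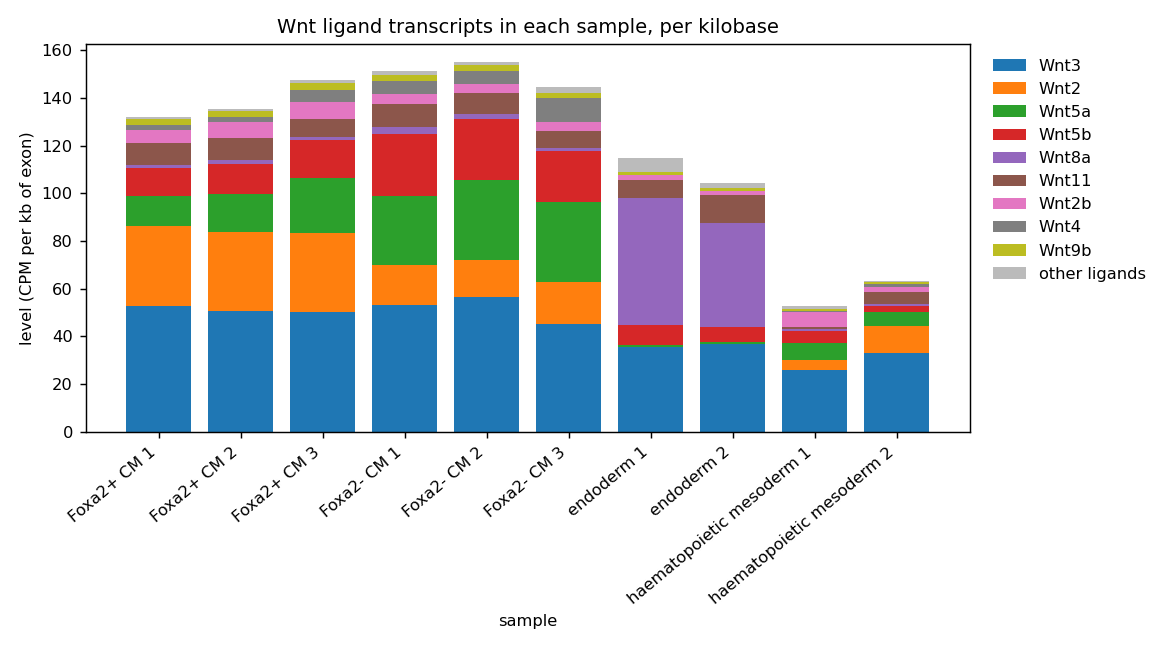
Stacked bars of Wnt ligand levels, in CPM per kilobase of exon, in each of the 10 samples, with the 9 ligands of highest mean level shown by colour and the others in grey. Wnt2 takes a larger part in Foxa2+ CM, Wnt5a and Wnt5b in Foxa2- CM and Wnt8a in endoderm, and the bars of haematopoietic mesoderm are the shortest, at 52.9 and 63.2 CPM per kb.

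Endoderm differed from CM in most members. Against the mean of both CM groups, 17 of the 48 tested members were higher and 15 lower (edgeR quasi-likelihood test on all 10 samples, adjusted p under 0.05), where 20.0% of all genes were higher and 17.3% lower. The called members included 5 Frizzled receptors, both Ror receptors and 5 antagonists on the higher side, and 9 of the 12 called ligands were on the lower side. The median log2 fold change of the members was 0.03, against 0.01 for all genes. Of the 32 calls, the 30 that met the minimum level were refitted with each of the 10 samples left out, and 21 held in every fit.

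Wnt8a, a ligand of the early streak and node region, had the highest level per exonic kilobase of the endoderm ligands, ahead of Wnt3. It (ENSMUSG00000012282.2, chromosome 18, 34542313 to 34548273) was at 93.4 and 75.7 CPM in endoderm, at 1.97 to 5.20 CPM in the 6 CM samples and at 1.76 and 1.10 CPM in HM (log2 fold change 4.85 against CM, SE 0.25, adjusted p = 1.59e-06 from edgeR). Wnt3a was at 13.8 and 3.01 CPM in endoderm and at 1.02 CPM or less elsewhere (3.99, SE 0.48, adjusted p = 0.000193). Its endoderm samples lay far apart, and both stood above every other sample. Wnt7b had 8 and 9 counts in the endoderm samples, 1 count over the 6 CM samples and 2 over HM, which gives a level of 0.749 CPM in endoderm and a ratio of at least 3.79 over Foxa2- CM, taking 3 counts per library as the floor.

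Several ligands were far lower in endoderm than in CM. Wnt2 was at 0.559 and 0.586 CPM there (log2 fold change −6.52, SE 0.47, adjusted p = 1.05e-05 from edgeR) and Wnt5a at 5.87 and 4.68 CPM (−5.13, SE 0.28, adjusted p = 2.01e-06). Wnt4 was at 0.0932 and 1.17 CPM, the lower of them under the floor (−4.89, SE 0.80, adjusted p = 0.00129). Smaller falls were called for Wnt5b (−1.30, SE 0.25), Wnt9b (−1.05, SE 0.21), Wnt2b (−1.52, SE 0.38), Wnt16 (−1.64, SE 0.49) and Wnt3 (−0.51, SE 0.11). Wnt3 remained at 109 and 113 CPM in endoderm, and so it was lower by a modest amount while still the second ligand per kilobase. Wnt6 was at 0 and 0.0837 CPM in endoderm and at 0.366 to 3.22 CPM in CM, with an adjusted p of 0.0493 from edgeR.

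The enzymes and carriers of ligand secretion split. Porcn (ENSMUSG00000031169.7, chromosome X, 8193848 to 8206525), the acyltransferase that lipid-modifies Wnts, was at 27.4 and 31.9 CPM in endoderm against 3.73 to 6.91 CPM in CM (log2 fold change 2.48, SE 0.22, adjusted p = 3.54e-05 from edgeR). Wls (chromosome 3, 159839672 to 159938664), the carrier of Wnt proteins, was at 97.7 and 93.9 CPM in endoderm against 204 to 239 CPM in CM (−1.17, SE 0.07, adjusted p = 3.13e-06). Neither gene overlapped between endoderm and CM.

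Among the Frizzled receptors 5 of 10 were higher in endoderm and 1 was lower. Fzd5 (ENSMUSG00000045005.8, chromosome 1, 64730558 to 64737751, minus strand) was at 166 and 378 CPM in endoderm and at 18.7 to 23.7 CPM in CM (log2 fold change 3.71, SE 0.24, adjusted p = 5.37e-06 from edgeR). Its exons share 1233 of 6915 bases with Gm38058 on the opposite strand. Fzd8 was at 89.3 and 140 CPM in endoderm and at 2.60 to 7.47 CPM in CM (4.60, SE 0.29), and Fzd6 at 76.4 and 91.3 CPM against 8.70 to 15.5 CPM (2.75, SE 0.33). Fzd2 and Fzd3 rose less, by 0.99 (SE 0.18) and 0.80 (SE 0.22) on the log2 scale. Fzd4, a receptor used in vascular development, was at 7.27 and 7.28 CPM in endoderm against 34.7 to 73.9 CPM in CM (−2.68, SE 0.41, adjusted p = 0.000837). Fzd7 still led per kilobase in endoderm, but with 30.6% of the summed Frizzled level, followed by Fzd5 with 19.3%.

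Both Ror receptors were highest in endoderm. Ror1 (ENSMUSG00000035305.5, chromosome 4, 100095791 to 100444765) was at 71.6 and 57.6 CPM, against 3.22 to 5.81 CPM in CM (log2 fold change 3.85, SE 0.17, adjusted p = 8.7e-07 from edgeR), and Ror2 at 101 and 111 CPM (2.63, SE 0.32, adjusted p = 0.000213). Ror2 thus ran from Foxa2+ CM, the lowest, through HM and Foxa2- CM, which overlapped, to endoderm. Lrp5 and Lrp6 were at 212 to 263 CPM in endoderm, with log2 fold changes of −0.02 (SE 0.07) and 0.17 (SE 0.08).

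The 5 secreted Frizzled-related antagonists (Sfrp1, Sfrp2, Sfrp4, Sfrp5 and Frzb) were all called higher in endoderm. Sfrp1 (ENSMUSG00000031548.7, chromosome 8, 23411502 to 23449632) was at 205 and 339 CPM, against 11.1 to 15.0 CPM in CM and 4.45 and 2.91 CPM in HM (log2 fold change against CM 4.36, SE 0.17, adjusted p = 6.48e-07 from edgeR). Frzb was at 138 and 159 CPM (3.70, SE 0.56) and Sfrp5 at 19.7 and 83.2 CPM (3.35, SE 0.45), both above every CM sample. Sfrp2 was at 36.7 and 36.5 CPM against 11.8 to 18.4 CPM in CM (1.31, SE 0.30), and Sfrp4 at 6.52 and 5.02 CPM against 2.48 to 4.11 CPM (0.85, SE 0.22). Sfrp4 was not called against Foxa2+ CM alone (adjusted p = 0.0583 from edgeR) or without the third sample of both CM groups. Dkk1 was not called in endoderm, where its samples stood at 44.4 and 103 CPM. The summed antagonist level was 138 and 232 CPM per kb in endoderm, against 49.4 to 66.7 CPM per kb in the 6 CM samples and 26.7 and 11.9 CPM per kb in HM. Dkk2, of the Dkk1 family, and Notum, an enzyme that removes the lipid from Wnts, were called lower in endoderm with adjusted p of 0.0497 and 0.0484 from edgeR. Dkk2 had 0.0932 and 0 CPM there against 0 to 10.3 CPM in CM, Notum 1.30 and 1.17 CPM against 1.74 to 6.49 CPM, and 918 of the 2408 exonic bases of Notum lie opposite other genes.

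R-spondins and their receptors moved both ways in endoderm. Rspo3 (ENSMUSG00000019880.9, chromosome 10, 29452416 to 29535867, minus strand) was at 41.9 and 31.7 CPM in endoderm against 95.4 to 140 CPM in CM (log2 fold change −1.72, SE 0.16, adjusted p = 3.98e-05 from edgeR). Its exons share 404 of 3090 bases with Gm48159 on the opposite strand. Rspo1 was at 12.7 and 8.70 CPM against 2.65 to 5.12 CPM (1.37, SE 0.30), and Lgr6 had 0 and 2 counts against 3 to 15 counts in the CM samples (−2.32, SE 0.75, adjusted p = 0.0355). The call of Lgr6 was lost with DESeq2 and without the third sample of both CM groups. Lgr4 was at 189 and 216 CPM in endoderm and at 172 to 197 CPM in CM (0.17, SE 0.19).

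**Figure D4:**
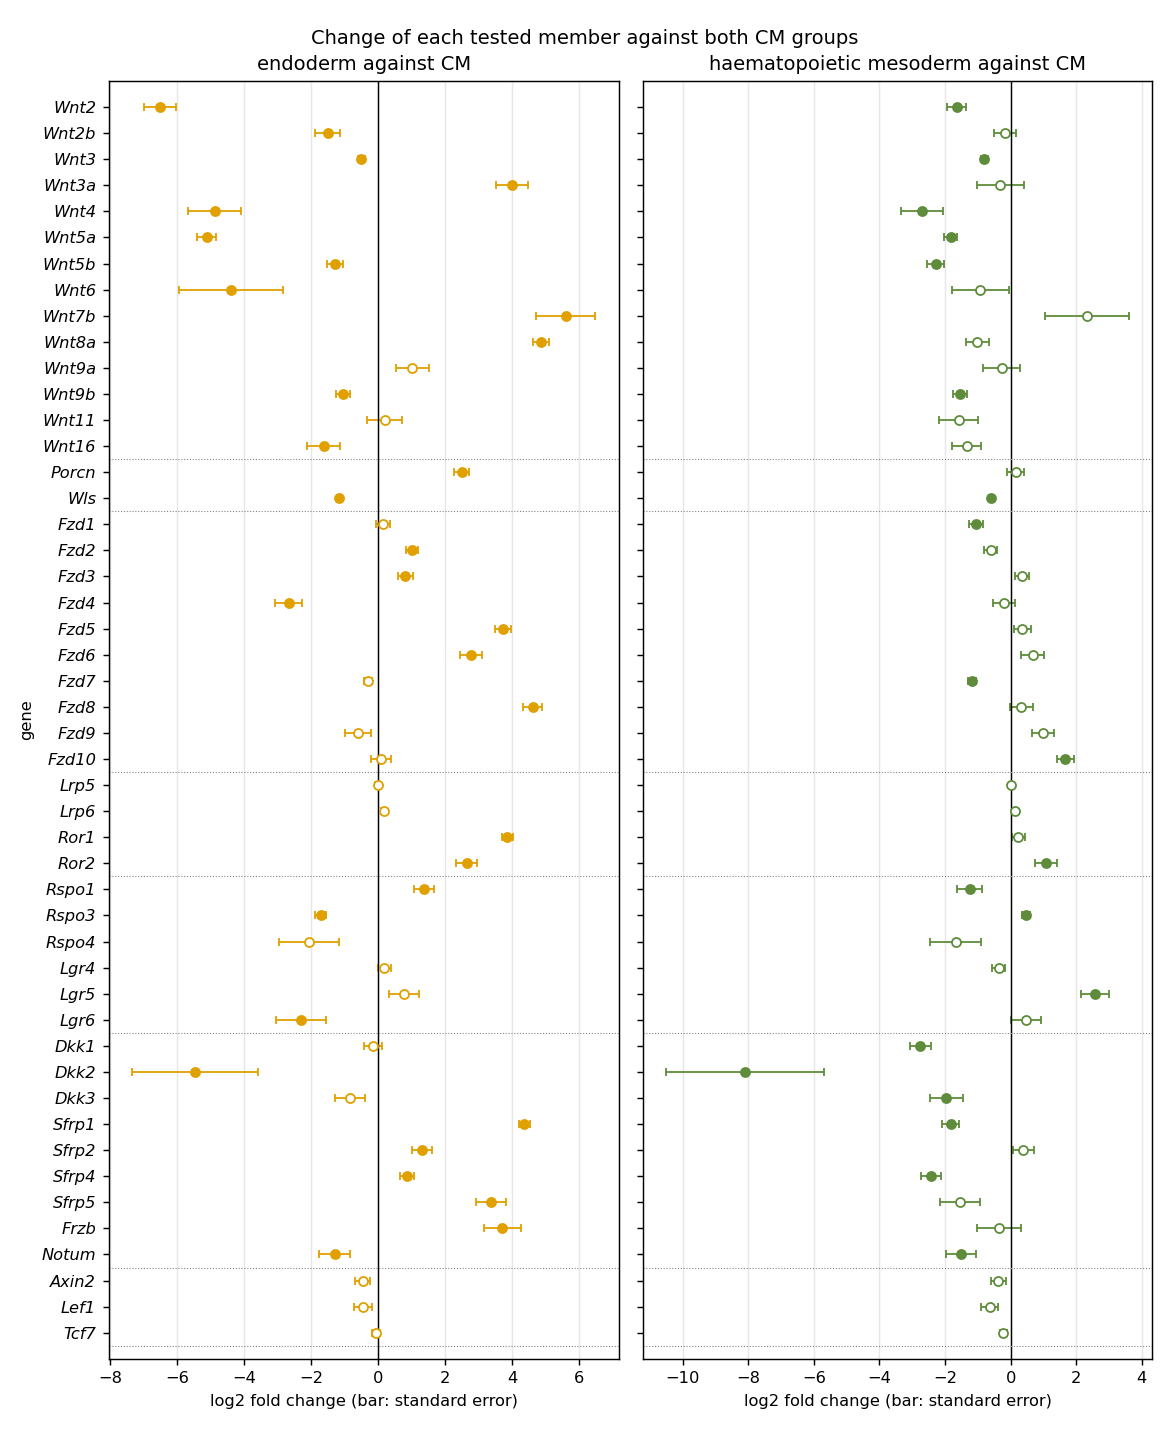
Log2 fold change with its standard error for each of the 48 tested members, in endoderm (left) and haematopoietic mesoderm (right) against the mean of both CM groups, with filled points for an adjusted p under 0.05 and dotted lines between roles. In endoderm 5 antagonists and 5 Frizzled receptors are filled to the right, while 16 of the 20 filled points of haematopoietic mesoderm lie to the left, and the 3 targets at the bottom are open in both panels.

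Some of the endoderm calls against CM depended on single samples. Without endoderm replicate 1 or 2 the calls numbered 24 and 25, and leaving out any other sample gave 27 to 35. Dkk2, Notum and Wnt6 held in only 3, 2 and 3 of the 10 fits, with adjusted p up to 0.22, 0.205 and 0.228 from edgeR. The other members lost in some fit were Fzd3, Rspo1, Sfrp2, Sfrp4, Wnt16 and Wnt2b, which held in 8 or 9 of the 10. Without the third sample of both CM groups, 28 were called. Against Foxa2+ CM alone 27 members were called, and against Foxa2- CM alone 30.

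HM, by contrast, was lower than CM in most of the members that differed. Of the 48 tested members 20 were called, 16 lower and 4 higher (edgeR, adjusted p under 0.05), where 25.7% of all genes were called, 1944 lower and 2213 higher of 16180. The 4 higher were Lgr5, Fzd10, Rspo3 and Ror2. The lower ones included 6 ligands and 6 antagonists, and no ligand or antagonist was higher. Rspo1 was also lower, at 2.38 and 1.02 CPM in HM (log2 fold change −1.25, adjusted p = 0.0341 from edgeR). Against Foxa2+ CM alone, the antagonists Dkk2, Dkk3 and Notum were not called (adjusted p = 0.119, 0.0849 and 0.141 from edgeR). Rspo1 (0.0615) and Rspo3 (0.152) were not called against that group either. The median log2 fold change of the members was −0.48, against 0.02 for all genes.

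Lgr5 and Fzd10 had the largest increases over CM among the members called in HM. Lgr5, an R-spondin receptor known as a stem cell marker of the gut (ENSMUSG00000020140.9, chromosome 10, 115450311 to 115587780, minus strand), was at 288 and 144 CPM in HM, at 17.9 to 61.3 CPM in CM and at 74.0 and 49.2 CPM in endoderm (log2 fold change against CM 2.57, SE 0.42, adjusted p = 0.00205 from edgeR). The highest CM values, 61.3 and 55.3 CPM, were those of the third sample of each CM group, in which the endothelial markers were also highest. Fzd10 (ENSMUSG00000081683.4, chromosome 5, 128600844 to 128604093, plus strand) was at 167 and 171 CPM in HM against 33.7 to 73.5 CPM in CM (1.67, SE 0.26, adjusted p = 0.00171), and the third sample of each CM group was again its highest, at 67.5 and 73.5 CPM. Per kilobase Fzd10 was the leading Frizzled receptor of HM, with 44.3% of the summed level, ahead of Fzd7 with 27.4%. Both calls against CM held with each of the 10 samples left out. The part of endothelial cells in these levels was not tested.

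The other increases of HM were smaller. Rspo3 was at 142 and 193 CPM (log2 fold change 0.47, SE 0.13, adjusted p = 0.0286 from edgeR), above every CM sample, and its call held in 5 of the 10 fits with a sample left out. The third Foxa2+ CM sample, at 140 CPM, was close to the lower HM value. Against Foxa2+ CM alone Rspo3 was not called (0.33, SE 0.15, adjusted p = 0.152 from edgeR). Ror2 was at 54.7 and 18.0 CPM (1.09, SE 0.34, adjusted p = 0.04), values on both sides of Foxa2- CM, at 35.6 to 38.4 CPM. Its call held in 2 of the 10 fits with a sample left out, with log2 fold changes from 0.08 to 1.65. Against Foxa2- CM alone the log2 fold change of Ror2 was −0.03 (adjusted p = 0.974). The HM samples differed from each other in several further members, with Frzb at 16.4 and 1.10 CPM and Wnt11, a ligand of the cardiac and gastrulating mesoderm, at 2.57 and 21.5 CPM.

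Dkk1 (ENSMUSG00000024868.8, chromosome 19, 30545863 to 30549665, minus strand), the Lrp-binding antagonist printed above with its pair of Tcf/Lef motifs, was among the antagonists that fell. It was at 11.2 and 13.3 CPM in HM against 64.7 to 96.0 CPM in CM (log2 fold change −2.75, SE 0.33, adjusted p = 0.000435 from edgeR), and it was also lower there than in endoderm. Sfrp4 and Sfrp1 fell by 2.42 (SE 0.30) and 1.83 (SE 0.26) on the log2 scale. Dkk2 had no read in either HM sample, which places Foxa2- CM at least 26.7-fold higher, with 3 counts per library as the floor. That bound is 15.8-fold without Foxa2- CM replicate 3, which at 10.3 CPM was well above the other pair (3.28 and 3.41 CPM). For Foxa2+ CM, at 0, 0.405 and 2.37 CPM, the bound is 4.36-fold, and no bound holds without its replicate 3. Dkk3 was at 1.00 and 0.394 CPM against 1.24 to 6.04 CPM in CM (−1.96, SE 0.50), and Notum at 1.19 and 0.945 CPM (−1.51, SE 0.45). The calls of Dkk2 and Notum held in 4 and 3 of the 10 fits with a sample left out.

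The 6 ligands called lower in HM included Wnt3, Wnt2, Wnt5a and Wnt5b, the 4 most abundant per kilobase in both CM groups. Wnt2 was at 9.41 and 25.0 CPM (log2 fold change −1.64, SE 0.29, adjusted p = 0.00338 from edgeR), Wnt5a at 56.4 and 48.0 CPM (−1.82, SE 0.20, adjusted p = 0.000344) and Wnt5b at 13.1 and 6.38 CPM (−2.29, SE 0.27, adjusted p = 0.00043). Wnt3 was at 79.4 and 102 CPM (−0.80, SE 0.11), Wnt9b at 4.27 and 3.39 CPM (−1.54, SE 0.22) and Wnt4 at 1.51 and 4.65 CPM (−2.69, SE 0.64). All 6 stood below every CM sample. Wls was at 142 CPM in both HM samples (−0.60, SE 0.07). Among the receptors Fzd7 was at 123 and 168 CPM against 290 to 360 CPM in CM (−1.17, SE 0.12, adjusted p = 0.000239), and Fzd1 at 16.7 and 8.74 CPM against 22.4 to 28.3 CPM (−1.05, SE 0.22). Of the 20 calls, 13 held with each sample left out. Leaving out 1 sample gave 16 to 25 calls, and leaving out the third sample of both CM groups gave 20.

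Endoderm and HM, compared directly, differed in 29 of the 48 members, 19 higher in endoderm and 10 higher in HM (edgeR, adjusted p under 0.05), where 16.4% and 16.2% of all genes were called in these directions. Of the Frizzled receptors 9 of 10 differed, with Fzd1, Fzd2, Fzd5, Fzd6, Fzd7 and Fzd8 higher in endoderm and Fzd4, Fzd9 and Fzd10 higher in HM. Among the called members Sfrp1 had the largest difference, 6.19 on the log2 scale (SE 0.30, adjusted p = 2.61e-06), followed by Wnt8a at 5.86 (SE 0.41). Of the 27 calls that met the minimum level 21 held with each of the 10 samples left out. Lgr5 (adjusted p = 0.0371 from edgeR) held in 5 of the 10 fits, Wnt2b in 2, Fzd9 and Ror2 in 8 and Fzd10 in 9, and Wnt5b was also lost in some. On the HM side Wnt2 led with −4.88 (SE 0.51) and Wnt5a followed with −3.31 (SE 0.29). This comparison uses the same endoderm and HM samples as those against CM and is not independent of them.

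The 3 targets did not pass the test in any comparison, nor in the test of any difference among the 4 groups. In endoderm Axin2 was at 147 and 122 CPM, Lef1 at 95.3 and 52.9 CPM and Tcf7 at 160 and 152 CPM. In HM they were at 198 and 89.6, 84.0 and 46.5, and 164 and 117 CPM. For Axin2 and Tcf7 the HM samples differed from each other by more than any of the group means did. Against CM the log2 fold changes were −0.47 (Axin2, SE 0.23), −0.46 (Lef1, SE 0.26) and −0.07 (Tcf7, SE 0.11) in endoderm and −0.37 (SE 0.23), −0.64 (SE 0.26) and −0.22 (SE 0.11) in HM. At an unadjusted p under 0.05 edgeR gave none of 3 in endoderm and 1 of 3 in HM, and DESeq2 called Lef1 in HM and none in endoderm. DESeq2 also called Lef1 in the test of any difference among the 4 groups. The exons of Lef1 share 1208 of 8788 bases with Gm43352 on the opposite strand, and those of Axin2 209 of 5506 with Gm11670.

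**Figure D5:**
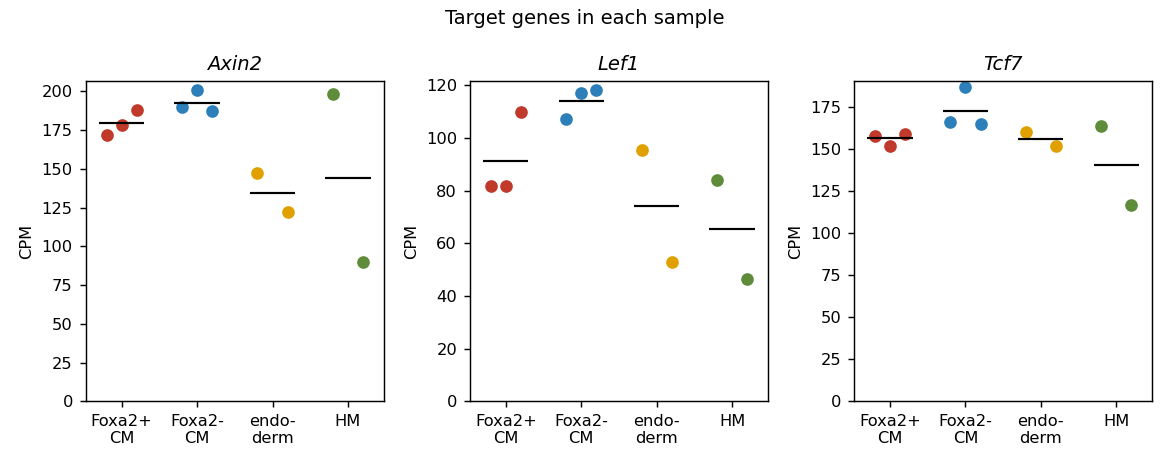
CPM in each sample (points) of the targets Axin2, Lef1 and Tcf7 in the 4 groups, with the group mean as a line and HM for haematopoietic mesoderm. For Axin2 the HM points, at 198 and 89.6 CPM, lie further apart than the group means, and for Lef1 Foxa2- CM is the highest group, at 107 to 118 CPM.

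A further 78 genes of the pathway, not among the 56, were grouped as 20 feedback and target genes, 26 intracellular components, 18 other modulators and 14 planar polarity genes. Between the CM groups 14 of 74 tested genes were called by edgeR, 4 higher and 10 lower in Foxa2+ CM, where 3.81% of all genes were higher and 2.66% lower. The feedback and target genes accounted for 6 of the lower calls out of 18 tested, and for no higher call. They were Cdx1, Cdx2, Sp8, Nkd2, Tbx6 and Twist1, of which Cdx1, Cdx2, Tbx6 and Twist1 are known as transcription factors of posterior, paraxial or other mesoderm and Sp8 of limb and tail, while Nkd2 binds Dishevelled and limits the signal. Cdx2 was at 2.63, 4.34 and 13.3 CPM in Foxa2+ CM, compared with 40.8, 52.8 and 77.1 CPM in the Foxa2- CM samples (log2 fold change −3.05, SE 0.52, adjusted p = 0.0149 from edgeR), and Cdx1 at 2.27, 1.56 and 1.35 CPM against 18.5, 10.3 and 5.93 CPM (−2.74, SE 0.43, adjusted p = 0.0116). The groups did not overlap for either gene. The median of the 18 was −0.27, against 0 for all genes.

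The remaining calls between the CM groups were spread over the other lists. Dact1, an intracellular Dishevelled-binding modulator, was lower in Foxa2+ CM at 5.56, 6.08 and 6.49 CPM against 14.9, 14.8 and 11.5 CPM (log2 fold change −1.18, SE 0.16, adjusted p = 0.00627 from edgeR). The glypican Gpc4, a cell-surface proteoglycan, was higher at 27.1, 28.4 and 13.2 CPM against 7.37, 5.64 and 5.70 CPM (1.87, SE 0.29, adjusted p = 0.0116). The corepressor Tle2 was higher (0.82, SE 0.12), as were the Dkk receptor Kremen1 (0.36, SE 0.06) and the polarity protein Vangl1 (0.32, SE 0.06), and Pygo1 was lower (−0.88, SE 0.15). Against CM, 39 of 77 were called in endoderm, 22 higher and 17 lower, where 37.2% of all genes were called, with the largest changes in the secreted inhibitor Cer1 (8.06, SE 0.21, 227 and 231 CPM), Cdx2 (−4.05, SE 0.73) and Gpc4 (3.88, SE 0.27). In HM 21 of 77 were called, 4 higher and 17 lower, a share near the 25.7% of all genes, with the largest changes in Tle2 (−3.08, SE 0.47), Prickle2 (−2.71, SE 0.29) and Daam2 (−1.96, SE 0.36), the latter both from the planar polarity list. Of the 20 feedback and target genes, edgeR called 9 in endoderm (2 higher, 7 lower) and 4 in HM (all lower). The shares of all genes called were 37.2% and 25.7%.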

How the data were processed

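Per the labels, libraries were made with Illumina TruSeq V2. The authors aligned single-end reads to mm10 with STAR 2.5.0a, removed duplicates with Picard and counted reads with HTSeq 0.6.0. The deposited values are whole-number counts per gene, not normalised. Removing duplicates without molecular identifiers can compress differences of abundant genes.

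Levels are CPM of the TMM-normalised library size. Tests used edgeR 4.0.16 (filterByExpr, quasi-likelihood, Benjamini-Hochberg, threshold 0.05) in R 4.3.3. The CM groups were compared on 6 samples and all other contrasts on 10. Standard errors were derived from the log2 fold change and the square root of its F statistic. DESeq2 1.42.0 was an alternative, beside other size factors, filters, a replicate block and samples left out. The code was tested on simulated data. Symbols and exonic lengths came from GENCODE M21, which matched 37607 of 38924 identifiers. Figures used matplotlib 3.10.9.

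Members and lists were chosen with earlier results of these data known. Values in every sample are given for members that passed at least 1 of the 5 tests and averaged at least 1 CPM in their highest group. Of the other pathway genes, up to 8 called between the CM groups, by adjusted p, and 3 per other contrast, by size of change, are named. The further target genes named between the CM groups were chosen after their values were seen.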

Additional observations from a re-analysis of the deposited data

How the results depend on the processing

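The count of members called between Foxa2+ CM and Foxa2- CM, 7 in the reported test, was the only one of the 5 counts to move by more than 1.5 times. It was 20 with the replicate number as a block, 2 (Ror2 and Wnt5a) with all 10 samples in 1 model, 3 with a limit of 2-fold and 18 without the third sample of both CM groups, an alternative added after the data were seen. With 1 CM sample left out it ranged from 2, without replicate 2 of either group, to 11, without Foxa2- CM replicate 3, and it was 4 without Foxa2- CM replicate 1. DESeq2 gave 9, other size factors 7, a looser filter 8 and a stricter filter 7. The count of 20 under the block includes all 7 genes. For these alternatives the share of all genes called was not counted. A higher count of members under them therefore cannot be read as particular to the members. Same-numbered CM samples deviated together with correlations of 0.447, 0.075 and 0.539. Foxa2+ CM replicate 1 and Foxa2- CM replicate 3 deviated oppositely (−0.51), as did Foxa2+ CM replicate 3 and Foxa2- CM replicate 1 (−0.459). The second Foxa2- CM sample correlated better with Foxa2+ CM replicate 1 (0.254) than with its own number. These values do not settle whether the numbers mark pairs, which the labels do not state, so the block was kept as an alternative. The block moved the other counts to between 21 and 36, each within 1.5 times of its value. For the calls of single members, Ror2 in HM was the only change of sign, with −0.03 against Foxa2- CM alone. The causes were not tested. Groups of 2 or 3 samples limit the precision of every comparison, and members under the floor of 3 counts were not detectable at this depth.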
